A study of Mus musculus with 18 samples.

Results

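The thyroid libraries made from mice without a Braf mutation were 3 single pooled samples: a wild-type pool, a pool carrying the Tert-123C>T allele and a pool carrying K5-Tert. They were chosen by their genotype labels and are 3 of the 18 libraries of the series. The study asked what raised telomerase does in mouse thyroid cancers driven by BrafV600E, and the other 15 libraries are tumours: 4 with BrafV600E alone, 7 that also carry Tert-123C>T and 4 that also carry K5-Tert. All 18 were labelled as thyrocytes sorted for YFP, a yellow fluorescent reporter, from untreated mice at 20 weeks. The submitters listed the source of all libraries, pools included, as thyroid tumour, although the genotypes of the pools name no Braf mutation. Libraries were made from 9000 to 20000 sorted cells by a low-input messenger RNA protocol.

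Tert-123C>T names a C-to-T change upstream in Tert, the gene of the telomerase catalytic subunit, read here as a promoter change. K5-Tert is by its name a Tert transgene, and the K5 prefix is commonly used for the keratin 5 promoter; the labels spell out neither. The labels name neither the promoter or recombinase behind YFP nor the number and sex of the mice in each pool. With 1 library a pool, mice cannot be told apart from genotype, and no difference between pools has a replicate check, an error or a test.

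Thyroid follicular cells make thyroid hormone on thyroglobulin, a very large secreted protein. Thyroglobulin is folded in the endoplasmic reticulum, iodinated at the cell surface with hydrogen peroxide from dual oxidases, and taken back up and digested to release hormone. The gland also holds calcitonin-producing C cells, a dense capillary bed and connective tissue, and it lies beside the parathyroid glands, thymus, trachea and salivary glands. Telomerase adds telomere repeats to chromosome ends with an RNA template, and most adult mouse tissues hold little of the Tert transcript.

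Levels below are in TPM (a transcript abundance that scales each library to 1000000 and allows for transcript length) and are given in the order wild-type pool, Tert-123C>T pool, K5-Tert pool. Ratios are log2 ratios of TPM + 1, which understate differences between low levels, and genes counted in a comparison had 10 TPM or more in at least 1 pool (8146 of 23626 entries). Rpph1, the RNA of ribonuclease P, made up 63.6%, 60.4% and 50.9% of the pools and 43.7% to 68.8% of the tumours, and it moves all other values. The median log2 ratio of all genes was 0.40 for the K5-Tert pool against the wild-type pool and -0.032 for the Tert-123C>T pool, against -0.040 and -0.14 after rescaling without Rpph1. Ratios are printed as deposited, and those of the K5-Tert pool are to be read against 0.40. As deposited, 62.3% of these genes were highest in the K5-Tert pool and 47.0% lowest in the Tert-123C>T pool. After rescaling without Rpph1 these shares were 34.8% and 43.3%. In the Tert-123C>T pool 24.5% were highest, and in the K5-Tert pool 15.9% lowest, against 31.8% and 32.2% without Rpph1. A count by order that turns on the scaling is therefore given with its other value. The pools held 11909, 12262 and 11664 genes at 1 TPM or more (tumours 10958 to 15045), and the ratios had Spearman correlations across genes of -0.025 (K5-Tert) and -0.044 (Tert-123C>T) with transcript length. Malat1, a nuclear noncoding RNA, was at 4798, 2896 and 8081 TPM (tumours 1050 to 8420).

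The wild-type pool had the profile of hormone-producing thyroid. Tg, which encodes thyroglobulin, was its second most abundant entry after Rpph1, at 31240, 25676 and 30045 TPM. The 15 tumours held 81.9 to 511 TPM of Tg, so all 3 pools lay far above every tumour. Without Rpph1, Tg was 8.58% of the wild-type library, 6.49% of the Tert-123C>T library and 6.12% of the K5-Tert library. After Tg, the wild-type pool ranked Vaultrc5 and RN45S, both noncoding RNAs, at 5105 and 5003 TPM, in libraries made for messenger RNA. The rest of the 20 highest entries were mostly ribosomal protein and housekeeping transcripts, among them Actb at 1787, 2374 and 2052 TPM and Eef1a1 at 1274, 1493 and 1557 TPM. Mt1, a metal-binding metallothionein, was at 3003, 3175 and 4797 TPM. The list also held Fos, Calr and Hsp90b1.

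Genes of hormone synthesis were well expressed in each pool. Of the 20 genes listed, all were in the table, 13 had 10 TPM or more in a pool, and 11 were above all 15 tumours in every pool. The Tert-123C>T pool held the lowest value of the 3 pools for 13 of the 20 and the K5-Tert pool held the highest for 11, against 9 and 8 without Rpph1. None of the 13 genes at 10 TPM was 4-fold or more from the wild-type pool in either Tert pool, where 4.27% (K5-Tert) and 5.67% (Tert-123C>T) of all genes were. Over all 20, 1 was past 4-fold, higher in the Tert-123C>T pool.

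Iyd, which recovers iodide from by-products of synthesis, was at 819, 481 and 1346 TPM. Slc5a5, the sodium-iodide symporter, was at 50.98, 49.3 and 65.3 TPM and differed less. Tumours held at most 102 and 3.54 TPM of these genes, below all pools.

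Duox2, which makes the hydrogen peroxide, was at 16.1, 9.21 and 23.1 TPM, and its maturation factor Duoxa2 was at 31.9, 28.8 and 46.3 TPM. The partner pair was lower: Duox1 was at 1.35, 0.566 and 0 TPM and Duoxa1 at 8.01, 10.7 and 1.46 TPM. Dio1, a deiodinase that converts the prohormone, was at 294, 217 and 340.1 TPM, whereas Dio2 was listed at 0 in all 3 pools. Slc26a7, an anion transporter of the follicular cell, was at 120.3, 83.8 and 188 TPM, while Slc26a4 (pendrin) was listed at 0 in 2 pools and at 0.872 TPM in the K5-Tert pool. Tshr, the thyrotropin receptor, was at 12.9, 5.75 and 38.1 TPM, with log2 ratios of 1.49 for K5-Tert and -1.04 for Tert-123C>T.

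**Figure D1:**
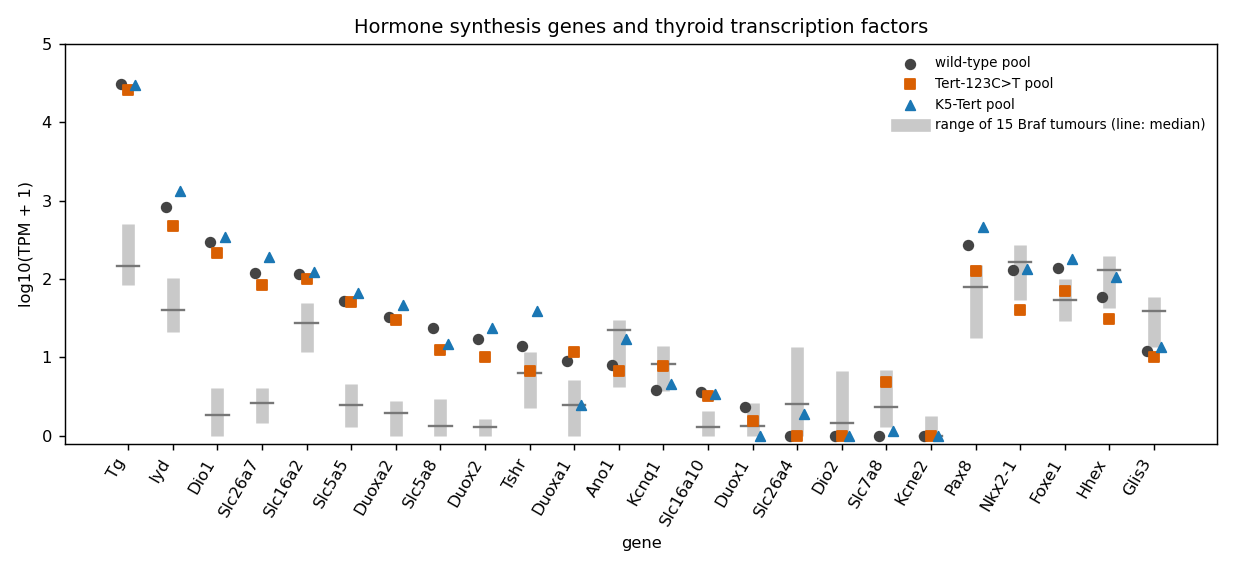
Levels of 19 hormone synthesis genes and 5 thyroid transcription factors in each pool (points) as log10(TPM + 1), with the range (grey bar) and median (line) of the 15 tumours. Tg, Iyd and Dio1 lie above the tumour range in all 3 pools, and the transcription factors lie lowest in the Tert-123C>T pool.

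The 5 transcription factors that define the thyroid lineage were each lowest in the Tert-123C>T pool, as deposited and under the 3 other scalings (without Rpph1, trimmed-mean factors and quantile normalization). All 5 were highest in the K5-Tert pool as deposited, but under each other scaling Pax8 and Hhex alone were, and Nkx2-1, Foxe1 and Glis3 were highest in the wild-type pool. Pax8 was at 274, 126 and 460.5 TPM and Foxe1 at 139, 69.8 and 180.2 TPM. Nkx2-1, which is also expressed in lung and in C cells, was at 131, 39.7 and 135 TPM, with the lowest ratio of the 5 for Tert-123C>T against wild type (-1.69). Hhex was at 58.2, 30.2 and 104 TPM and Glis3 at 11.1, 9.04 and 12.7 TPM. Their median log2 ratio to the wild-type pool was -0.98 in the Tert-123C>T pool (all genes -0.032) and 0.37 in the K5-Tert pool (all genes 0.40), so the second matched the shift of the whole library. For Pax8 and Foxe1 the wild-type and K5-Tert pools were above the highest tumour (151 and 98.1 TPM). For Nkx2-1 and Hhex the Tert-123C>T pool alone was below the lowest tumour (52.4 and 41.4 TPM). For Glis3 the wild-type pool was too (lowest tumour 12.6 TPM), and the K5-Tert pool lay just above it.

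Epithelial genes were also mostly lowest in the Tert-123C>T pool. Of 17 adhesion and keratin genes, 15 were lowest there under all 4 scalings. As deposited 15 were highest in the K5-Tert pool, and 10 after quantile normalization. Epcam, an epithelial adhesion protein, was at 234, 133 and 352 TPM and Cdh1 (E-cadherin) at 139, 74.2 and 151 TPM. Cdh16, a cadherin of thyroid and kidney epithelium, was at 131, 79.6 and 203 TPM, against at most 26.4 TPM in the tumours. Cldn1, a tight junction protein, was the single gene of this list past 4-fold against the wild-type pool, lower in the Tert-123C>T pool, at 7.49, 1.02 and 12.1 TPM. In bulk samples such as these, fewer cells of a type and less RNA per cell cannot be told apart. Markers of many other cells were higher in the Tert-123C>T pool, with values given below, and their part in the lower thyroid and epithelial levels was not tested.

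Signalling and digestion genes of the follicular cell were closer together. Of 10 genes for thyroglobulin uptake and digestion, Ctsd (cathepsin D) was at 304, 281 and 484 TPM, Ctsb at 124, 104 and 157 TPM and the uptake receptor Lrp2 at 29.1, 21.3 and 31.6 TPM. Among the 9 at 10 TPM or more in a pool, the single one past 4-fold against the wild-type pool was Ctss (cathepsin S). Ctss, which macrophages also make, was at 20.5, 91.6 and 27.3 TPM. It was highest in the pool with the most macrophage transcript, and the part of macrophages in this was not tested. Ctsk (cathepsin K), below 10 TPM in each pool, was at 0, 4.48 and 5.18 TPM and so listed at 0 in the wild-type pool. Of 17 genes of thyrotropin signalling, the 10 at 10 TPM or more included none past 4-fold against the wild-type pool, with Gnas, the stimulatory G protein, at 80.3, 126 and 105 TPM. Over all 17, 1 was past 4-fold, higher in the Tert-123C>T pool.

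Genes for protein folding in the endoplasmic reticulum were highest in the K5-Tert pool for 21 of the 22 measured as deposited, for 18 without Rpph1 and for 15 after quantile normalization. Their summed level was 5581, 4726 and 9508 TPM, and in the tumours 1751 to 4657 TPM. Hspa5, the main chaperone of that compartment, was at 615, 761 and 1495 TPM. Herpud1, which serves the disposal of misfolded proteins, was at 82.3, 129 and 298 TPM. Ddit3, a transcription factor of the unfolded protein response, was at 111, 36.3 and 291 TPM. None was 4-fold or more from the wild-type pool, and the list's median ratio was 0.65 for K5-Tert beside 0.40 for all genes.

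Immediate-early and stress genes, which respond within minutes to growth signals and to handling of cells, were high in every pool. Of the 24 listed, 18 were higher in each pool than in any tumour. Fos was at 1424, 1453 and 2608 TPM, and the highest tumour held 388 TPM. Atf3 was at 815, 847 and 1427 TPM and Egr1 at 691, 1042 and 1217 TPM. The sum of the list was 8201, 9560 and 12971 TPM (tumours 798 to 2866 TPM), and that of 12 heat shock genes was 3837, 5219 and 6497 TPM (tumours 1544 to 4142 TPM). The labels give no times for dissociating and sorting the cells.

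Counted over all genes, 188 were 4-fold or more higher (2.31%) and 160 lower (1.96%) in the K5-Tert pool than in the wild-type pool. In the Tert-123C>T pool 310 were higher (3.81%) and 152 lower (1.87%). Between the Tert pools, 375 genes were higher (4.6%) and 473 lower (5.81%) in the K5-Tert pool, 10.4% in all. Many of these were listed at 0 in the lower library: 47 and 62 genes for K5-Tert against wild type, 91 and 47 for Tert-123C>T against wild type, and 65 and 161 between the Tert pools, so their ratio depends on the 1 TPM added. The first comparison and the second share the wild-type pool. The share of calls that were higher was 54.0% for K5-Tert against wild type, but 32.3% without Rpph1, 32.9% with trimmed-mean factors and 38.9% after quantile normalization. It was 67.1% for Tert-123C>T against wild type (56.8% without Rpph1), and 44.2% between the Tert pools (33.8%, 25.2% and 32.0% under these scalings).

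The pools differed from each other by more than the median pair of tumours of 1 genotype did, and the Tert pools by more than any such pair. With genes filtered for each pair, 3.81% were 4-fold or more apart between the wild-type and K5-Tert pools, 5.79% between the wild-type and Tert-123C>T pools, and 10.5% between the Tert pools. Pairs of tumours with Braf alone differed in 0.401% to 0.726% of genes (6 pairs). Pairs of Tert-123C>T tumours differed in 0.679% to 9.31% (21 pairs) and pairs of K5-Tert tumours in 1.996% to 7.74% (6 pairs). The Tert-123C>T tumour pairs that differed most all included the same tumour, and pairs without it reached at most 3.15%. Over all 33 tumour pairs the median was 2.29%, below each pair of pools. A gene past 4-fold between 2 pools is therefore a difference between 2 libraries, and some genes were also past 4-fold between tumours sharing a genotype. These shares count genes and do not give the spread of any single gene.

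**Figure D2:**
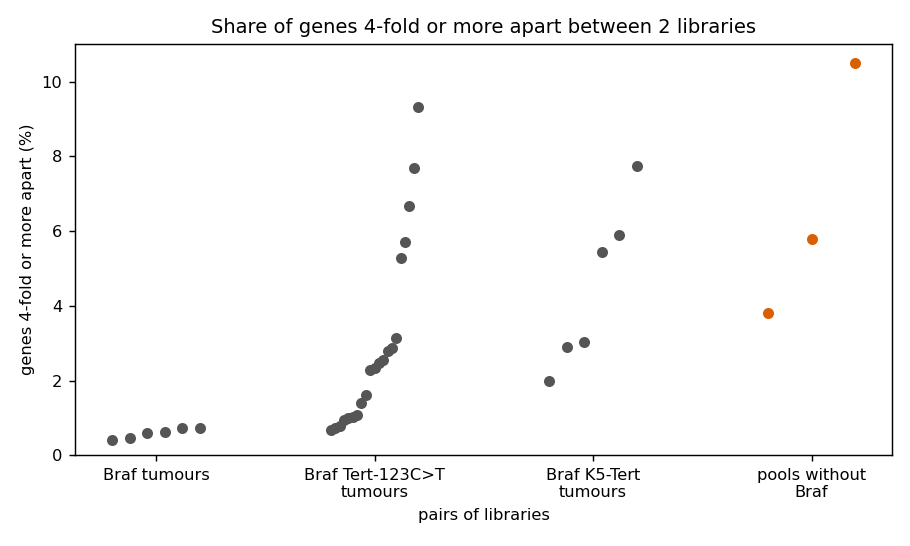
Share of genes 4-fold or more apart (y axis, percent) for each pair of libraries within a tumour genotype and for the 3 pairs of pools; each point is 1 pair. The pools lie at 3.81%, 5.79% and 10.5%, above all pairs of Braf tumours and within or just above the range of the tumours with a Tert allele.

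Tert itself was at 2.15, 8.79 and 125 TPM. The K5-Tert pool was above the highest tumour (73.9 TPM), with a log2 ratio of 5.32 to the wild-type pool and 3.69 to the Tert-123C>T pool. The Tert-123C>T pool was above the wild-type pool by 1.64, short of 4-fold, and lay within the range of the tumours (lowest 2.65 TPM). The table does not tell transgene from endogenous transcript. Krt5, the gene whose promoter the K5 prefix commonly denotes, was at 13.02, 26.1 and 6.07 TPM and so was lowest in the K5-Tert pool. Braf was at 8.68, 13.3 and 15.8 TPM.

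The Tert-123C>T site is shown because the allele is defined by it. The label does not say from where the base is counted. Counted back from the first base of the start codon, the named base of the mouse gene is chr13:73626907 in GRCm38.p6, on the plus strand, in the promoter and 4 bases before the first annotated base of the RefSeq transcript. Read this way, the reference base is C, and its change to T makes the letters CTTCCG, a form of the site bound by ETS factors. The shorter letters TTCC are already in the reference and end on the named base. The change removes that TTCC and makes another within CTTCCG, and TTCC alone was not counted. The letters CTTCCG, searched on both strands, occur in 16.9% of all 32851 RefSeq promoter windows of 300 bases. They occur once in the reference Tert window and 2 times with the change. The sites span chr13:73626896-73626916, with CTTCCG in capitals where the change makes it; the longer stretch is chr13:73626661-73626910 with the named base in capitals. Sequences are from RefSeq.
Tert site, reference: cccgccccttcctccgttccc
Tert site with the change: cccgccccttCTTCCGttccc
Tert promoter: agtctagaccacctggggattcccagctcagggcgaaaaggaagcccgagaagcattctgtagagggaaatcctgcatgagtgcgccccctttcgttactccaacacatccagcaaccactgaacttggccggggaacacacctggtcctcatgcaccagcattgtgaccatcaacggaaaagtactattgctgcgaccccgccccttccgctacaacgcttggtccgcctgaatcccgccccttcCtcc

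Genes of telomerase and telomere upkeep, Tert included, were not ordered as one group. Of the 22 measured (14 at 10 TPM or more in a pool), 15 were highest in the K5-Tert pool as deposited and 11 without Rpph1. Among those 14, past 4-fold against the wild-type pool were Tert and Nop10, higher, and Terc, lower, in the K5-Tert pool (of all genes, 2.31% higher and 1.96% lower). In the Tert-123C>T pool 0 were higher and Terc was lower (of all genes, 3.81% and 1.87%). Over all 22, 2 were higher and 3 lower in the K5-Tert pool, and 0 and 1 in the Tert-123C>T pool. Nop10, a protein of the telomerase and other H/ACA ribonucleoproteins, was at 12.6, 24.00 and 102 TPM; the highest tumour held 63.3 TPM. Terc, the telomerase RNA, was at 16.1 TPM in the wild-type pool and listed at 0 in both Tert pools, in libraries made for messenger RNA. Dkc1, the dyskerin that stabilizes that RNA, was at 3.22, 4.63 and 11.9 TPM. Of the shelterin proteins that cap telomeres, Terf1 was at 6.79, 5.37 and 9.28 TPM, Terf2 at 7.25, 2.32 and 9.94 TPM and Acd at 20.4, 8.26 and 31.6 TPM.

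Dbp and Arntl, both genes of the circadian clock, differed most of that list between the K5-Tert pool and the other pools, in opposite directions. Dbp, an output factor of the clock, was at 102, 92.7 and 2.64 TPM, with a log2 ratio of -4.82 to the wild-type pool. Arntl, which encodes the activator BMAL1, was at 4.77, 3.45 and 50.8 TPM and had a ratio of 3.17. The wild-type and Tert-123C>T pools were close for both genes, and the K5-Tert pool lay outside the tumour range for each (Dbp 7.97 to 43.9, Arntl 6.04 to 32.5 TPM). These were the only 2 of the 14 clock genes at 10 TPM or more that were past 4-fold against the wild-type pool, 1 higher and 1 lower, where 2.31% of all genes were higher and 1.96% lower. Over all 19 measured, 1 was higher and 2 were lower, the second being Ciart, below 10 TPM in each pool. The list as a whole did not move one way: its median ratio relative to all genes was -0.15.

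Other members were less far apart. Npas2, a partner of BMAL1, was at 5.69, 2.17 and 20.5 TPM and Clock at 14.4, 14.4 and 23.6 TPM, both highest in the K5-Tert pool. Nr1d1 and Nr1d2, the REV-ERB repressors of Arntl, were at 129, 106 and 84.5 TPM and 40.4, 30.5 and 20.6 TPM, both lowest there. Tef, related to Dbp, was at 27.6, 28.1 and 8.41 TPM, and Ciart, a repressor of the clock, was at 3.45, 6.13 and 0 TPM. Per1 was at 37.2, 38.4 and 83.3 TPM, while Per2 was at 16.5, 15.1 and 13.5 TPM. In the Tert-123C>T pool no clock gene was past 4-fold against the wild-type pool. The labels do not give the hour at which tissue was taken.

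Promoters of clock genes are shown because Dbp and Arntl differed in the K5-Tert pool and clock genes are wired through short elements: the E-box CACGTG, the D-box TTATGTAA and the REV-ERB and ROR element AGTAGGTNA. RefSeq gave 21 windows for 16 clock genes, each from 250 bases before to 50 after a start. On both strands, CACGTG was in 6 of the 21 windows (7.15% of all windows), TTATGTAA in 1 (0.938%) and AGTAGGTNA in 3 (0.591%). Counted by gene these were 5, 1 and 2 of 16. The genes with CACGTG were Ciart, Tef, Bhlhe41, Per1 and Cry1. Against the wild-type pool, Per1 and Cry1 were higher in the K5-Tert pool as deposited, and Ciart, Tef and Bhlhe41 were lower. The windows of Per1, Cry1 and Bhlhe41 are not printed. Windows of 1 gene can overlap, and the 2 Arntl windows share a match. Below, capitals mark CACGTG in Ciart (chr3:95882229-95882478, minus strand, 3 matches), Tef (chr15:81811164-81811413, 1 match) and Dbp (chr7:45704997-45705246, no match in this window). They mark TTATGTAA in Per3 (chr4:151044666-151044915, minus strand, 2 matches) and AGTAGGTNA in the 30-base Arntl sites (chr7:113207493-113207522 and chr7:113207529-113207558), in GRCm38.p6. All run 5′ to 3′ on the plus strand unless stated. The longer stretches end just before a start site, whereas the Arntl sites lie across or after the 2 annotated starts, and a match is not evidence that the site is bound.
Ciart: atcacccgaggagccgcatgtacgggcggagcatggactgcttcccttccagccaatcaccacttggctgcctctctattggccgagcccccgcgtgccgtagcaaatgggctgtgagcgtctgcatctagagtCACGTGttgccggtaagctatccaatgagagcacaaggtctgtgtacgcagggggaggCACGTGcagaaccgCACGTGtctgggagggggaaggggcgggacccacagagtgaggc
Tef: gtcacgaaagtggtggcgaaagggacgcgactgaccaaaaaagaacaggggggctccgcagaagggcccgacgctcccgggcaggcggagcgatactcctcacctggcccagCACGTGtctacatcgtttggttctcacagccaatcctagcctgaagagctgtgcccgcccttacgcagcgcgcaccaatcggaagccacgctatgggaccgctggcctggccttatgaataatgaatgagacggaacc
Dbp: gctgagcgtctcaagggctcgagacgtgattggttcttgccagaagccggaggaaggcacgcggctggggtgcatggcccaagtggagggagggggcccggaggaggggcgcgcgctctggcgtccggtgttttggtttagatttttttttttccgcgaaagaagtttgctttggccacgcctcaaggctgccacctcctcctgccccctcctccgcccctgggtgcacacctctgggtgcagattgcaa
Per3: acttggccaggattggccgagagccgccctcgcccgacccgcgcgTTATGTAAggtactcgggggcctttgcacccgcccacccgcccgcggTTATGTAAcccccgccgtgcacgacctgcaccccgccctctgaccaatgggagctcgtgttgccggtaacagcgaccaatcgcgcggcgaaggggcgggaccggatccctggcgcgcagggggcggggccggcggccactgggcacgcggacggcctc
Arntl site 1: ttggtcggaaAGTAGGTTAgtggtgcgaca
Arntl site 2: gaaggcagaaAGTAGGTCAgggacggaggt

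**Figure D3:**
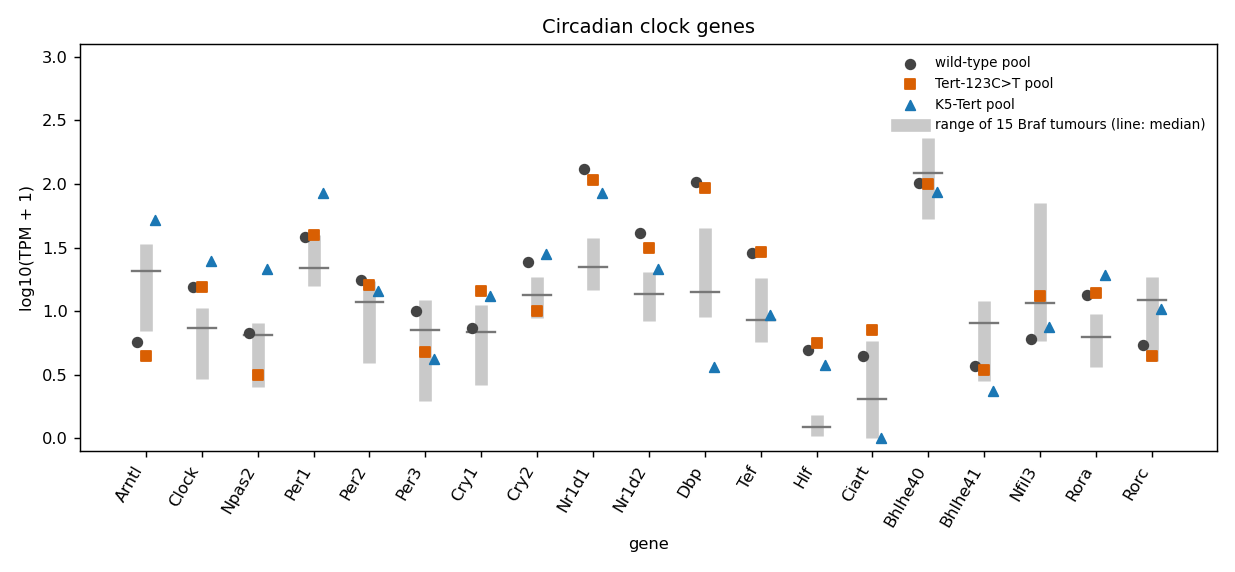
Levels of 19 circadian clock genes in each pool (points) as log10(TPM + 1), with the range (grey bar) and median (line) of the 15 tumours. Dbp lies low and Arntl high in the K5-Tert pool, while the wild-type and Tert-123C>T pools lie close together for both.

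Beyond the clock and telomerase, the highest ratios of the K5-Tert pool to the wild-type pool, among genes at 50 TPM or more in either, were spread over genes of varied roles. Arl9, a small GTPase, was listed at 0 in the wild-type and Tert-123C>T pools and was at 57.7 TPM in the K5-Tert pool (tumours up to 8.36). C2cd4b was at 15.1, 3.64 and 106 TPM. Nme3, a nucleoside diphosphate kinase, was at 14.1, 33.00 and 110.1 TPM, and Ndufb3, a subunit of respiratory complex I, was at 9.19, 38.7 and 63.5 TPM. Hist1h1a, a linker histone, was at 4.13, 15.05 and 51.1 TPM. Histone genes have close copies among which reads can be split, so their values are uncertain.

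The lowest ratios of the K5-Tert pool included several vessel genes. Kdr, the main VEGF receptor, was at 69.5, 172 and 15.5 TPM, Pecam1 at 70.3, 173 and 17.7 TPM and Sparcl1 at 83.9, 301 and 19.6 TPM. Also among them was Fabp4, a fatty acid binding protein of fat cells and capillaries, at 52.6, 166 and 7.57 TPM. Of 14 adipocyte genes, 10 were listed at 0 in the wild-type pool and 9 in the K5-Tert pool. Bpifa1, a secreted airway protein, was at 55.5, 94.3 and 0 TPM. Ifitm3, an antiviral membrane protein, was at 63.8, 338 and 14.8 TPM. The uncharacterized A730063M14Rik was at 102, 3.76 and 0 TPM and so was low in both Tert pools.

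Endothelial genes gave the clearest order of the pools. All 19 markers listed were lowest in the K5-Tert pool under all 4 scalings. All 19 were highest in the Tert-123C>T pool as deposited, and 18 without Rpph1. Plvap, a protein of fenestrated capillaries, was at 289.8, 929 and 106 TPM. Cdh5 (VE-cadherin) was at 61.03, 164 and 17.95 TPM, Flt1, another VEGF receptor, at 48.03, 139 and 16.4 TPM, and Ramp2, a receptor partner, at 47.9, 181 and 3.09 TPM. The summed level was 895, 2703 and 284 TPM, against 51.6 to 379 TPM in the tumours, so the wild-type and Tert-123C>T pools were above every tumour and the K5-Tert pool was within their range. Over all 19 markers the median log2 ratio to the wild-type pool was -1.62 for K5-Tert and 1.53 for Tert-123C>T, and the all-gene medians at the filter were 0.40 and -0.032. Over all 19, past 4-fold were 5 lower in the K5-Tert pool (of all genes at the filter, 1.96% were) and 1 higher in the Tert-123C>T pool (3.81%), the latter Tek at 14.3, 70.5 and 6.55 TPM.

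**Figure D4:**
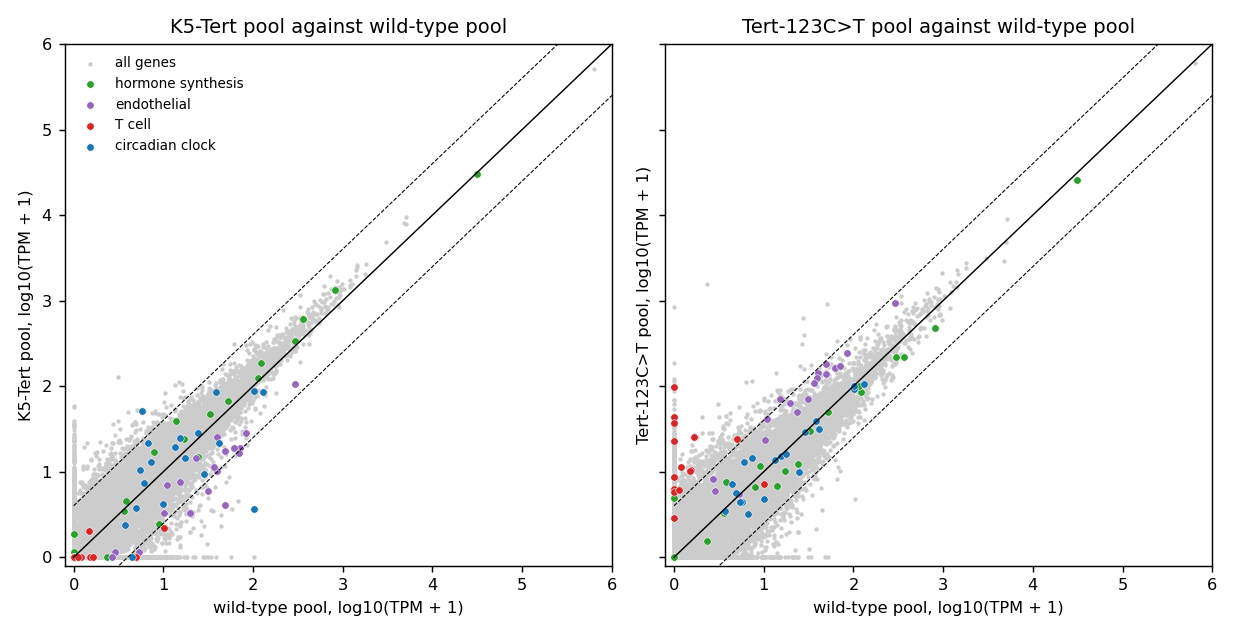
Level of each gene in the K5-Tert pool (left) or the Tert-123C>T pool (right) against the wild-type pool, as log10(TPM + 1), with 4 lists coloured. The solid line marks equal levels and the dashed lines 4-fold; endothelial genes lie below the solid line on the left and above it on the right, and T cell genes other than Lck and Thy1 lie below 1 TPM in the wild-type pool and reach 96.1 TPM (Cd3g) on the right.

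Summed marker levels of most other cell types looked for were highest in the Tert-123C>T pool. Of 27 marker lists, 21 had their highest summed level in that pool, 6 in the K5-Tert pool and 0 in the wild-type pool, against 22, 3 and 2 without Rpph1. Some of the 21 sums do not stand for a cell type. The erythroid sum was Alas2 alone, at 24.5 TPM there, with the 6 other members at 0 in every pool. Of 11 neutrophil genes, 9 were at 0 there. Dll4 made up 51.2 of the 67.3 TPM of thymic epithelium, whose members Foxn1, Ccl25 and Aire were at 0 there. Many markers of these lists passed the 10 TPM filter only because of the Tert-123C>T pool, so the counts of markers cover all measured members of a list. Of all genes at the filter, 24.5% were highest in the Tert-123C>T pool (31.8% without Rpph1).

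T cell markers were below 10 TPM or at 0 in the wild-type and K5-Tert pools. Of 15 measured, 14 were highest in the Tert-123C>T pool, 8 were listed at 0 in the wild-type pool and 13 in the K5-Tert pool. Cd3g, a chain of the T cell receptor complex, was at 0, 96.1 and 0 TPM, Cd3e at 0, 42.04 and 0 TPM and the signalling adaptor Lat at 0, 36.2 and 0 TPM. The exception was Lck, a kinase of T cell signalling, which was highest in the wild-type pool, at 9.08, 6.09 and 1.22 TPM, and made up most of the sum there. The sum of the list was 15.1, 303 and 2.27 TPM, and 9.31 to 77.2 TPM in the tumours. Cytotoxic lymphocyte genes had the same pattern: Ccl5, a chemokine, was at 0, 119 and 0 TPM and Gzmb (granzyme B) at 0, 22.2 and 0 TPM, with a list sum of 0, 172 and 0.538 TPM. Genes of thymocytes, the developing T cells of the thymus, summed to 6.59, 62.5 and 6.997 TPM (tumours at most 17.04 TPM), and 10 of 12 were highest in the Tert-123C>T pool. Tcf7, a transcription factor of T cells, was at 2.55, 20.8 and 5.26 TPM, Satb1 at 2.15, 13.3 and 1.74 TPM and Dntt, which acts in developing lymphocytes, at 0, 5.44 and 0 TPM.

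Myeloid and general leukocyte genes were also highest there. Of 15 macrophage markers, 14 were highest in the Tert-123C>T pool, with C1qa, a complement component, at 8.99, 71.8 and 6.87 TPM and Cd14 at 8.02, 51.3 and 4.003 TPM. Their sum was 73.9, 371 and 89.6 TPM, and the tumours spanned 258 to 5873 TPM, so the wild-type and K5-Tert pools were below every tumour. Of 10 markers of all leukocytes, 9 were highest in the Tert-123C>T pool, with Cd52 at 0, 67.4 and 0 TPM. B cell markers summed to 1.52, 12.97 and 6.45 TPM, and Cd79a was listed at 0 in every pool. The neutrophil genes S100a8 and S100a9 were also at 0 in every pool, although Ltf (lactoferrin, also a gland product) was at 0.783, 24.3 and 0 TPM.

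Immune response genes were ordered likewise. MHC class II genes, which present antigen, summed to 548, 1418 and 507 TPM (tumours 805 to 8963 TPM), with H2-Aa at 55.02, 216 and 23.1 TPM and Cd74 at 300.3, 642 and 289 TPM. Of 26 interferon response genes 19 were highest in the Tert-123C>T pool and 12 lowest in the K5-Tert pool (20 and 15 without Rpph1). Of all genes at the filter, 24.5% and 15.9% were (31.8% and 32.2% without Rpph1). Over all 26, 4 were past 4-fold lower and 0 higher than the wild-type pool in the K5-Tert pool, where 1.96% and 2.31% of all genes at the filter were. In the Tert-123C>T pool 1 was higher, Ifit1 at 2.45, 15.6 and 2.61 TPM, and 2 were lower (of all genes, 3.81% and 1.87%). Isg15, a ubiquitin-like protein, was at 13.1, 35.3 and 0 TPM, Iigp1, an interferon-induced GTPase, at 25.04, 53.9 and 1.67 TPM and Gbp2 at 18.8, 26.8 and 3.39 TPM. Of 24 cytokine and NF-kB genes 17 were highest in the Tert-123C>T pool, with Cxcl2 at 13.2, 89.00 and 0 TPM and Tnf at 2.46, 26.2 and 0 TPM. These genes moved beside the leukocyte markers above, and the part of those cells in them was not tested.

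Fibroblast genes were highest in the Tert-123C>T pool for 13 of 14 markers. Dcn (decorin, a matrix proteoglycan) was at 12.7, 142 and 14.2 TPM, Col1a2 (a collagen I chain) at 5.37, 42.2 and 4.99 TPM and Lum (lumican) at 0, 32.3 and 0 TPM. Their sum of 93.2, 453 and 114 TPM compares with 156 to 3255 TPM in the tumours. The wild-type and K5-Tert pools were thus below all tumours in fibroblast transcripts.

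Transcripts of endocrine neighbours of the follicle were found in every pool. Calca, which encodes calcitonin in C cells, was at 336, 1144 and 191 TPM, against at most 12.2 TPM in a tumour. Chga (chromogranin A) was at 49.95, 914 and 48.3 TPM, and 13 of 17 C cell genes were highest in the Tert-123C>T pool. Scg5 was the exception among the well expressed ones, at 51.8, 28.4 and 114 TPM. Pth, parathyroid hormone, was at 26.3, 632 and 27.8 TPM; Chga is also made by parathyroid cells. Gcm2, the factor that defines the parathyroid, was below 1 TPM in each pool, at 0.927, 0.388 and 0 TPM.

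Secreted proteins best known from salivary and lacrimal glands led the ratios of the Tert-123C>T pool to the wild-type pool, by the rule of the 10 highest. Mucl2, a mucin-like protein, was at 1.34, 1563 and 0 TPM. Scgb1b27 and Scgb2b27, secretoglobins, were at 830.1 and 114 TPM in the Tert-123C>T pool and listed at 0 in the others. Prol1, a proline-rich gland protein, was at 187 TPM, Smgc, a submandibular gland protein, at 106 TPM, and Car6, a secreted carbonic anhydrase, at 91.6 TPM, each listed at 0 in the other pools. No tumour exceeded 2.87 TPM for any of these 6 genes. Secretoglobins have close copies among which reads can be split, so their single values are uncertain.

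**Figure D5:**
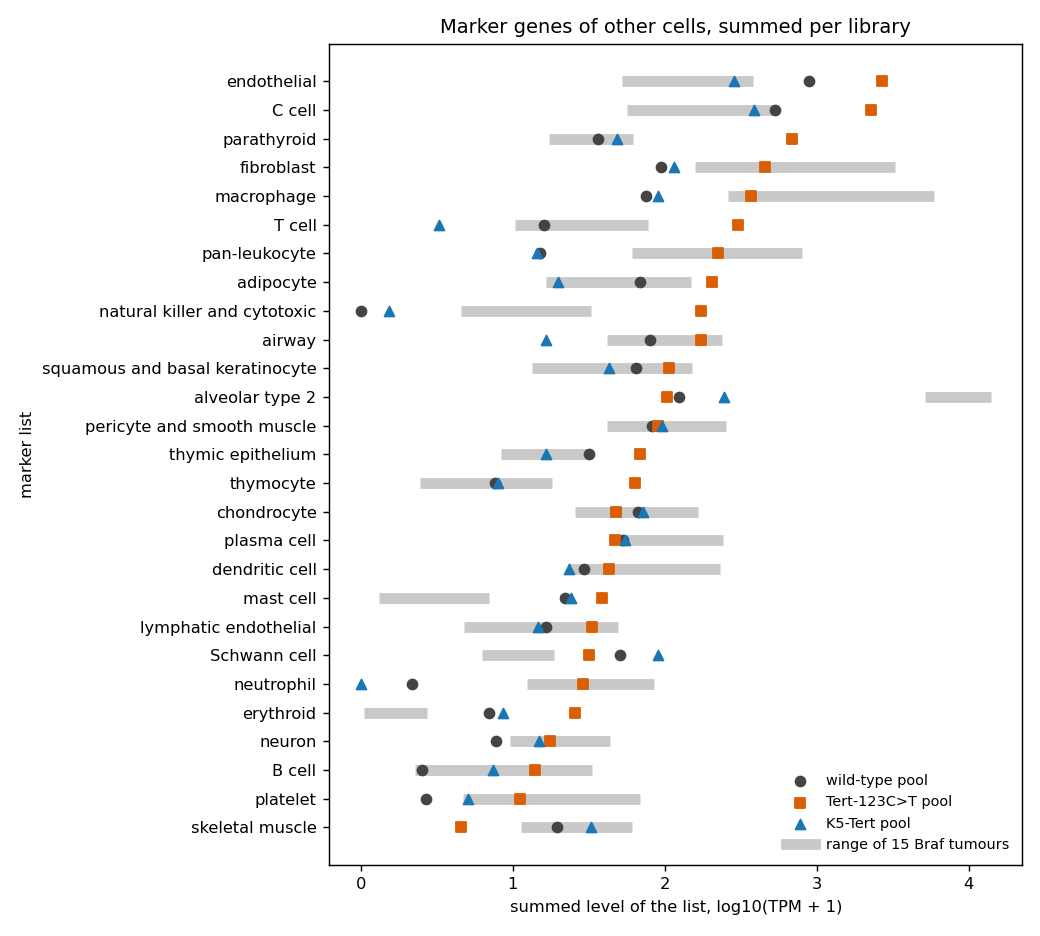
Summed level of 27 marker lists of other cells in each pool (points) and the range over the 15 tumours (grey bars), as log10(TPM + 1). The Tert-123C>T pool lies highest for 21 lists, while macrophage and fibroblast sums of the wild-type and K5-Tert pools lie below all tumours.

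A few lists were highest in the K5-Tert pool. Genes of alveolar type 2 cells of the lung summed to 124, 103 and 244 TPM, with Sftpb (surfactant protein B) at 6.38, 6.89 and 47.8 TPM and Sftpa1 at 0.966, 0 and 21.2 TPM, while Sftpc, the most specific of them, was listed at 0 in each pool. The same list of 8 genes, not all of them surfactant proteins, summed to 5187 to 13999 TPM in the tumours. Schwann cell genes summed to 49.6, 30.7 and 89.4 TPM, led by S100b at 35.2, 18.8 and 59.2 TPM. Of 19 skeletal muscle genes, 1 reached 10 TPM, Mylpf, at 19.6 TPM in the K5-Tert pool and listed at 0 in the others.

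Genes of the sex chromosomes differed between the pools. Xist, expressed from the inactive X of females, was at 43.2, 10.9 and 1.29 TPM, and the Y-linked Ddx3y and Eif2s3y were at 11.3, 15.96 and 25.9 TPM and 9.93, 18.1 and 23.7 TPM. Transcripts of both sexes were present in each pool, with the most Xist and least Ddx3y in the wild-type pool and the reverse in the K5-Tert pool. By these transcripts the mix of sexes differed along with the genotype, and its part in the differences above cannot be told apart.

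The lowest ratios of the Tert-123C>T pool to the wild-type pool, among genes at 50 TPM or more in either, included Nkx2-1 and genes of varied roles. Npy, which encodes neuropeptide Y, was at 70.7, 9.09 and 142 TPM. Fxyd4, a regulator of the sodium pump, was at 64.5, 7.25 and 41.8 TPM, against at most 3.83 TPM in the tumours. Glrx5, which serves iron-sulfur cluster assembly, was at 74.6, 23.3 and 61.8 TPM. Nkx2-1, Glrx5 and Rgl3 were within 4-fold of the wild-type pool.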

How the data were processed

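RNA was sequenced from 18 libraries of YFP-sorted thyroid cells, as paired reads of 100 bp after 14 cycles of PCR, per the labels' protocols. For the aligner, quantifier, genome build and annotation, a name is not given in the sources used here. The deposited table holds 23652 entries; each column sums to 1000000, so the authors' values were taken as TPM. No counts were used, so the depth is unknown and no counting interval is given. The 26 entries whose names had turned into dates were left out, and 23562 of the other 23626 matched a mouse symbol.

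Ratios were computed with Python 3.11.15, pandas 2.3.3 and numpy 2.4.6 as log2 of TPM + 1, for entries at 10 TPM or more in at least 1 pool. A difference of 4-fold or more was counted, and list medians were compared with all genes. The counting was checked on simulated data. Replicates cannot be assessed with 1 library a pool. Named were Tert, Braf, the 20 highest entries of the wild-type pool, the 10 highest and 10 lowest ratios of each comparison at 50 TPM or more, every thyroid, telomere and technical list member, the 8 highest of each other list, and every member of lists with 2 or more past 4-fold. A few genes that this rule names are not reported here, but they stay in every count and sum. The pools and the 51 gene lists were chosen with earlier results of these data known. One list, of mitochondrially encoded genes, had no member in the table. Promoter letters came from RefSeq windows of GRCm38.p6, matched by symbol. Alternatives were the pseudocount, the filter, the fold, rescaling without Rpph1, trimmed-mean factors and quantile normalization.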

Additional observations from a re-analysis of the deposited data

Results flagged for a closer look

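For 4 marker lists, the median log2 ratio to the wild-type pool, relative to the median of all genes, lay on opposite sides in the Tert pools by 1 or more. Endothelial genes were at -2.06 in the K5-Tert pool and 1.58 in the Tert-123C>T pool. C cell genes were at -1.33 and 1.4. Adipocyte genes were at -1.0 and 1.67, and airway genes at -1.75 and 1.84. These differences were not tested, each pool is 1 library, and both ratios share the wild-type pool. The adipocyte and airway values rest on 3 and 4 genes at 10 TPM or more, among them Fabp4 and Bpifa1. With no filter, over all measured members, the adipocyte values were 0.0 and 0.025, the airway values -0.20 and 0.38, the C cell values -0.53 and 0.71 and the endothelial values -1.62 and 1.53. Bpifa1 was listed at 0 in the K5-Tert pool, so its ratio depends on the TPM added.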

How the results depend on the processing

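Counts of genes past 4-fold depended on the settings, and are given as higher and lower for K5-Tert against wild type, then Tert-123C>T against wild type, then K5-Tert against Tert-123C>T. Adding 5 TPM gave 57 and 30, 112 and 26, 112 and 237. No filter gave 409 and 357, 675 and 351, 691 and 995. A filter at 50 TPM gave 18 and 27, 54 and 10, 54 and 100. Rescaling without Rpph1, which lifts more genes past 10 TPM, gave 294 and 617, 680 and 517, 574 and 1126. A fold of 2 gave 1208 and 453, 927 and 775, 1957 and 845, and a fold of 8 gave 61 and 64, 133 and 55, 114 and 279. Trimmed-mean factors gave 99 and 202, 316 and 135, 192 and 569, and quantile normalization gave 117 and 184, 329 and 187, 263 and 558. Lists with a median 1 or more below all genes numbered 5 for K5-Tert, but 1 with 5 TPM added, 1 with no filter and 3 after quantile normalization. For Tert-123C>T they numbered 0, but 1 with the 50 TPM filter and 1 after quantile normalization.

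Of 786 list medians under 7 alternatives, 684 moved by less than 0.5, 101 by more, and 1 reversed. That one was the alveolar type 2 list in the K5-Tert pool, at 1.31 above all genes as reported and -0.023 with the 50 TPM filter, which leaves fewer genes. No paired analysis was possible because each pool is 1 library with no replicate number, and no library could be left out for the same reason. Depth, batch, sex and number of mice limit every difference between the pools.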

Other observations

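Genes of oxidant defence, which follicular cells need because they make hydrogen peroxide, were expressed in all pools. Hmox1 (heme oxygenase) was at 118, 376 and 155 TPM, above every tumour (at most 78.6 TPM), and Sod1 (superoxide dismutase) was at 448, 746 and 686 TPM. Prdx6, a peroxiredoxin, was at 80.3, 57.01 and 108 TPM, also above every tumour (at most 28.7 TPM). Of the 21 measured, 19 reached 10 TPM in a pool, and none of these was 4-fold or more from the wild-type pool in either Tert pool. Over all 21, 1 was past 4-fold, lower in the Tert-123C>T pool. Selenop, a selenium carrier, was lowest in the K5-Tert pool, at 79.8, 120.2 and 32.4 TPM.

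Ribosomal protein genes summed to 28499, 40881 and 40578 TPM, so both Tert pools were above the wild-type pool (tumours 34649 to 73185 TPM). Of the 82 genes, 36 were highest in the Tert-123C>T pool and 38 in the K5-Tert pool as deposited, and 57 and 13 without Rpph1. Against all genes their median log2 ratio was 0.52 in the Tert-123C>T pool and 0.10 in the K5-Tert pool, the second turning to -0.017 after quantile normalization. Nuclear genes of the respiratory chain summed to 9809, 11280 and 15156 TPM, highest in the K5-Tert pool for 53 of 82 as deposited and for 34 without Rpph1.

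Cell cycle genes were low in every pool, with a sum over 29 genes of 94.2, 100.2 and 87.5 TPM (tumours 95.9 to 245 TPM). Pcna, a replication clamp, made up much of it at 40.3, 44.1 and 36.9 TPM. Of 20 genes of MAPK output 11 were highest in the Tert-123C>T pool, where 24.5% of all genes at the filter were (31.8% without Rpph1). Among the 11 were Dusp5 at 55.5, 182 and 60.2 TPM and Dusp6, a phosphatase that acts on ERK, at 15.9, 51.1 and 40.6 TPM. Of those at 10 TPM or more, 0 were past 4-fold against the wild-type pool in either Tert pool. Histone genes moved without a common direction: Hist2h2ac was at 60.7, 12.6 and 308 TPM, Hist1h4b at 67.00, 10.4 and 3.50 TPM and Hist1h3b at 0, 67.4 and 0 TPM, and close copies make these values uncertain.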
